A study of Mus musculus with 4 samples.

Results

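Immediate early genes and other genes that respond to neuronal activity were followed in the neocortex of mouse embryos that lack synaptic transmission. The members were the array probes whose single gene symbol belongs to a named set of activity-regulated genes (Tiparp, the Ier, Fos, Jun, Egr, Nr4a, Klf, Gadd45, Dusp, Zfp36 and Mef2 families, Bdnf, Homer1, Creb1 and others) and that had a value on at least 3 arrays. There were 54 such probes for 53 genes, among 5140 genes of the series with a single symbol and a value on at least 3 arrays. The rule matched 59 probes. The other 5, for Arc, Egr3, Gadd45a, Nptx2 and Ptgs2, had no value on any array, and no level of these genes is given. None of the 59 probes was for Fos, Jun, Nr4a1 or Nr4a3, so these genes have no value here either.

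The study set C57BL/6 null mutants, described in the labels as synaptically silent, against normal embryos at embryonic day 16. Each of 4 two-colour arrays carried RNA of a separate null sample beside the same pool of 4 normal replicates. Null RNA was labelled with Cy3 on replicate 1 and with Cy5 on replicates 2, 3 and 4. For the null sample of replicate 1 the labels conflict, with day 14 in the source name but day 16 in the other fields. By its title, the series asks which genes depend on synaptic activity for their expression.

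In neurons, calcium that enters through NMDA receptors and L-type channels activates calmodulin-dependent kinases and the MAP kinase cascade. These kinases act on transcription factors already present in the nucleus, among them CREB, SRF with its partners, and the MEF2 family. Their targets include immediate early genes, which are transcribed within minutes and without new protein synthesis. Many immediate early genes encode transcription factors such as Fos, Jun and Egr proteins, others encode effectors such as the growth factor BDNF and the scaffold Homer1, and a further set, the DUSP phosphatases and the ZFP36 proteins, ends the response. Most of them are also induced by growth factors or stress in other cell types.

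The promoters of some members hold the DNA elements that CREB and SRF bind, and some are shown here because they are a known route from activity to these genes. Sequences were RefSeq windows of assembly GRCm38.p6, and 42 of the 53 member genes had at least 1. The 250 bases before each annotated start were searched on both strands. The cAMP response element, the CREB site TGACGTCA, was in a window of 4 member genes, or 9.52%, against 1.77% of all 27025 genes with a window. The CArG box bound by SRF was in 3 member genes, or 7.14%, against 1.62%. The site of EGR proteins, GCGTGGGCG or GCGGGGGCG, was in 8 member genes, or 19.0%, against 3.47%. The AP-1 site TGACTCA was in 1 member gene, Dusp13, or 2.38%, against 5.16%. Some genes have several start sites and so several windows, and a match describes letters, not binding. The stretches that follow run 5′ to 3′ along the gene's strand, with each CREB site or CArG box in capitals. They lie at chr1:134079294-134079341 (Btg2, minus strand), chr17:26508588-26508635 (Dusp1, minus) and chr7:28379257-28379306 (Zfp36, minus), each before the outermost annotated start of its gene. Dusp8 and Maff also had a CREB site and Srf and Egr2 a CArG box, inside a longer model of their gene, and these are not printed.
Btg2 CREB site: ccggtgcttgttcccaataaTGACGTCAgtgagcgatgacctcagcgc
Dusp1 CREB site: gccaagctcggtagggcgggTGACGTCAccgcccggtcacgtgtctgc
Zfp36 CArG box: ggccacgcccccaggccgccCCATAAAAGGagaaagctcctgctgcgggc

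Each value is the authors' log ratio between the channels of an array, read as log2. No source used here names the channel in the numerator. The sign therefore does not say whether a gene was higher in the null or in the pool, and it is given as deposited. Replicates 2 to 4 share their dye orientation and so their direction, and the mean over them was tested against 0. Because null RNA was in Cy5 on all 3, an effect of the dye on a gene and an effect of the genotype cannot be told apart in this test. With a dye term fitted over 4 arrays, 10 of the 29 member probes described in full changed sign. That fit gives the genotype effect only if the ratio was a fixed channel over the other. If null was already set against pool, it gives the dye effect instead. In either case its separation of dye from genotype rests on replicate 1 alone. Replicate 1 is given beside replicates 2 to 4 as deposited. It has to be turned in sign if the ratio was a fixed channel over the other, and not if the authors had already set null against pool. Between 5777 and 5873 probes had a value on an array, and replicate 3 had the widest spread over all probes, with an SD of 0.63 against 0.40 to 0.48 on the others. The pool counts as 1 control sample, so the tests leave out the spread between controls. In whole tissue, fewer cells of a type and less RNA per cell cannot be told apart. A ratio gives no level, so the labelled neocortex could not be checked for the presence of its markers.

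No activity-regulated gene separated from 0 by the adjusted test, and the smallest p-values belonged to Tiparp, Dusp10 and Mef2b. Of the 53 member probes with a value on replicates 2 to 4, 0 passed an adjusted p of 0.05 in limma, and 0.00% of all 5720 probes did. At an unadjusted p under 0.05 limma listed 3 members, Tiparp on the positive side and Dusp10 and Mef2b on the negative side. That is 1 positive member against 5.61% of all probes and 2 negative members against 4.06%. In either direction the share listed was 5.66% of members against 9.67% of all probes. Without replicate 2 the negative count was 0, and without replicate 4 it was 1. On 4 arrays with replicate 1 turned, limma listed Tiparp as positive, against 5.29% of all probes, and Dusp10 and a probe of Nfil3 as negative, against 3.15%. With replicate 1 as deposited, 0 members were listed as positive, against 3.48%, and Mef2b and Pim1 as negative, against 3.64%.

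**Figure D1:**
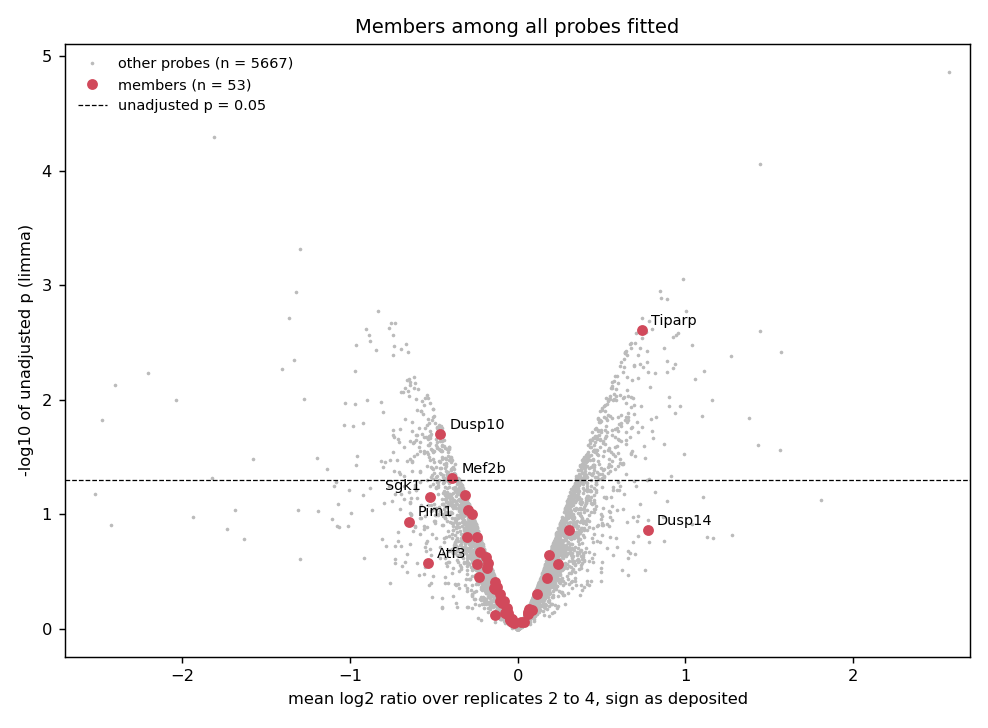
Mean log2 ratio over replicates 2 to 4 (horizontal axis) against -log10 of limma's unadjusted p-value (vertical axis) for the 53 member probes (red) and the other probes fitted (grey), with a dashed line at the threshold of 0.05. Tiparp, Dusp10 and Mef2b lie above the line, whereas Dusp14, Pim1, Atf3 and Sgk1 have large means but lie below it.

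The signs of the members leaned to the negative side. The mean was below 0 for 39 of 53 member probes, or 73.6%, against 52.6% of all probes. The median member mean was -0.07, against -0.02 over all probes. By array, 39 of 53 members were negative on replicate 2 (73.6%, against 54.1% of all probes) and 34 of 54 on replicate 4 (63.0%, against 49.3%). On replicate 3 the split was even, with 27 of 54 negative, against 50.3%. On replicate 1, as deposited, 24 of 54 were negative, against 49.8%. Without replicate 2 the count was 37 of 54, or 68.5% against 52.0% of all probes, and without replicate 3 it was 41 of 53, or 77.4% against 53.7%. Without replicate 4 it was 30 of 53, or 56.6% against 51.9%. In the fit of 4 arrays with a dye term, which takes the ratio as a fixed channel over the other, it was 29 of 53. That was 54.7%, close to the 51.9% of all probes. No test was made of this share, because the members are not independent and share their arrays.

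**Figure D2:**
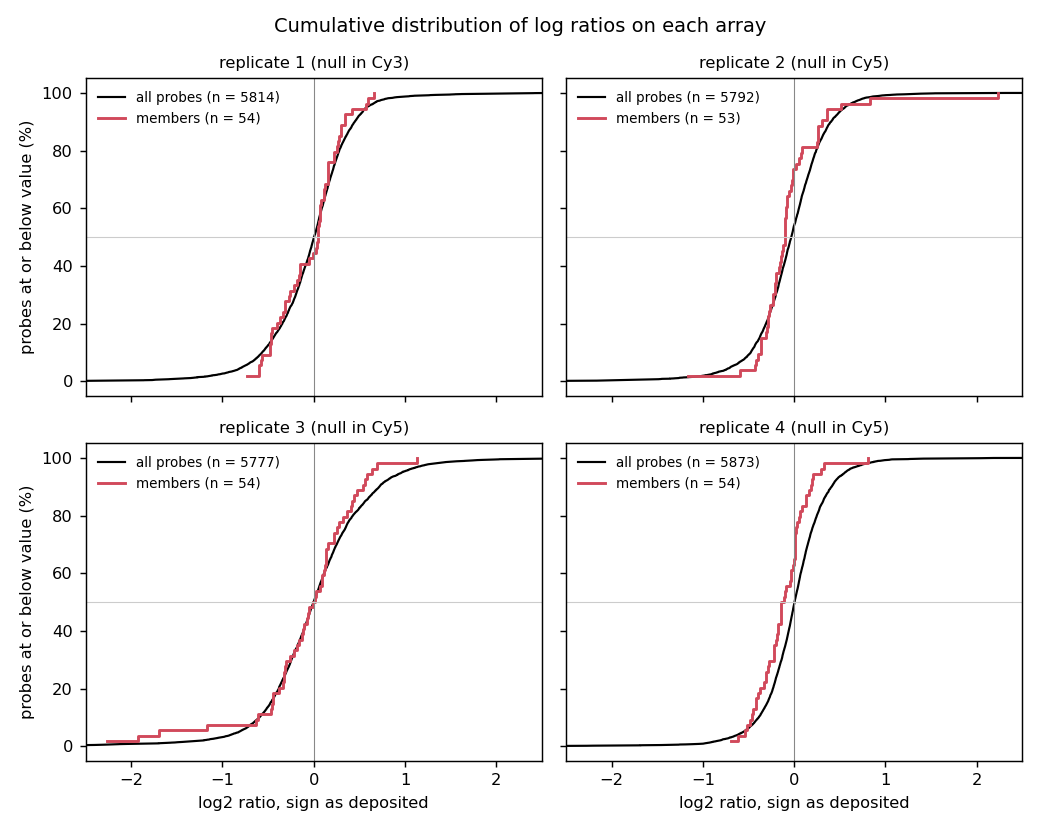
Cumulative share of probes (vertical axis, percent) at or below a given log2 ratio (horizontal axis, as deposited) on each array, for members (red) and all probes (black). On replicates 2 and 4 the member curve lies above the black curve near 0, as 73.6% and 63.0% of members were negative there, whereas on replicate 3 both curves cross 0 near 50%.

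A common sign on replicates 2 to 4 was seen for 13 members, or 24.5%, against 33.5% of all probes. Positive on each were 2 members, against 16.3% of all probes, and negative on each were 11, against 17.3%. The positive ones were Tiparp and Dusp13. The negative ones were Sgk1, Dusp10, Mef2b, a probe of Nfil3, Ier2, Atf4, Ier5, Jund, Dusp8, Klf2 and Btg2. With replicate 1 turned, the same sign on all 4 arrays was kept by both positive members and by 8 of the negative ones, against 8.53% and 9.58% of all 5687 probes on 4 arrays. Mef2b, Ier2 and Dusp8 were the 3 that lost it. With replicate 1 as deposited it was the reverse. Mef2b, Ier2 and Dusp8 were negative on all 4 arrays, against 7.74% of all probes, and no member was positive on all 4, against 7.77%.

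**Figure D3:**
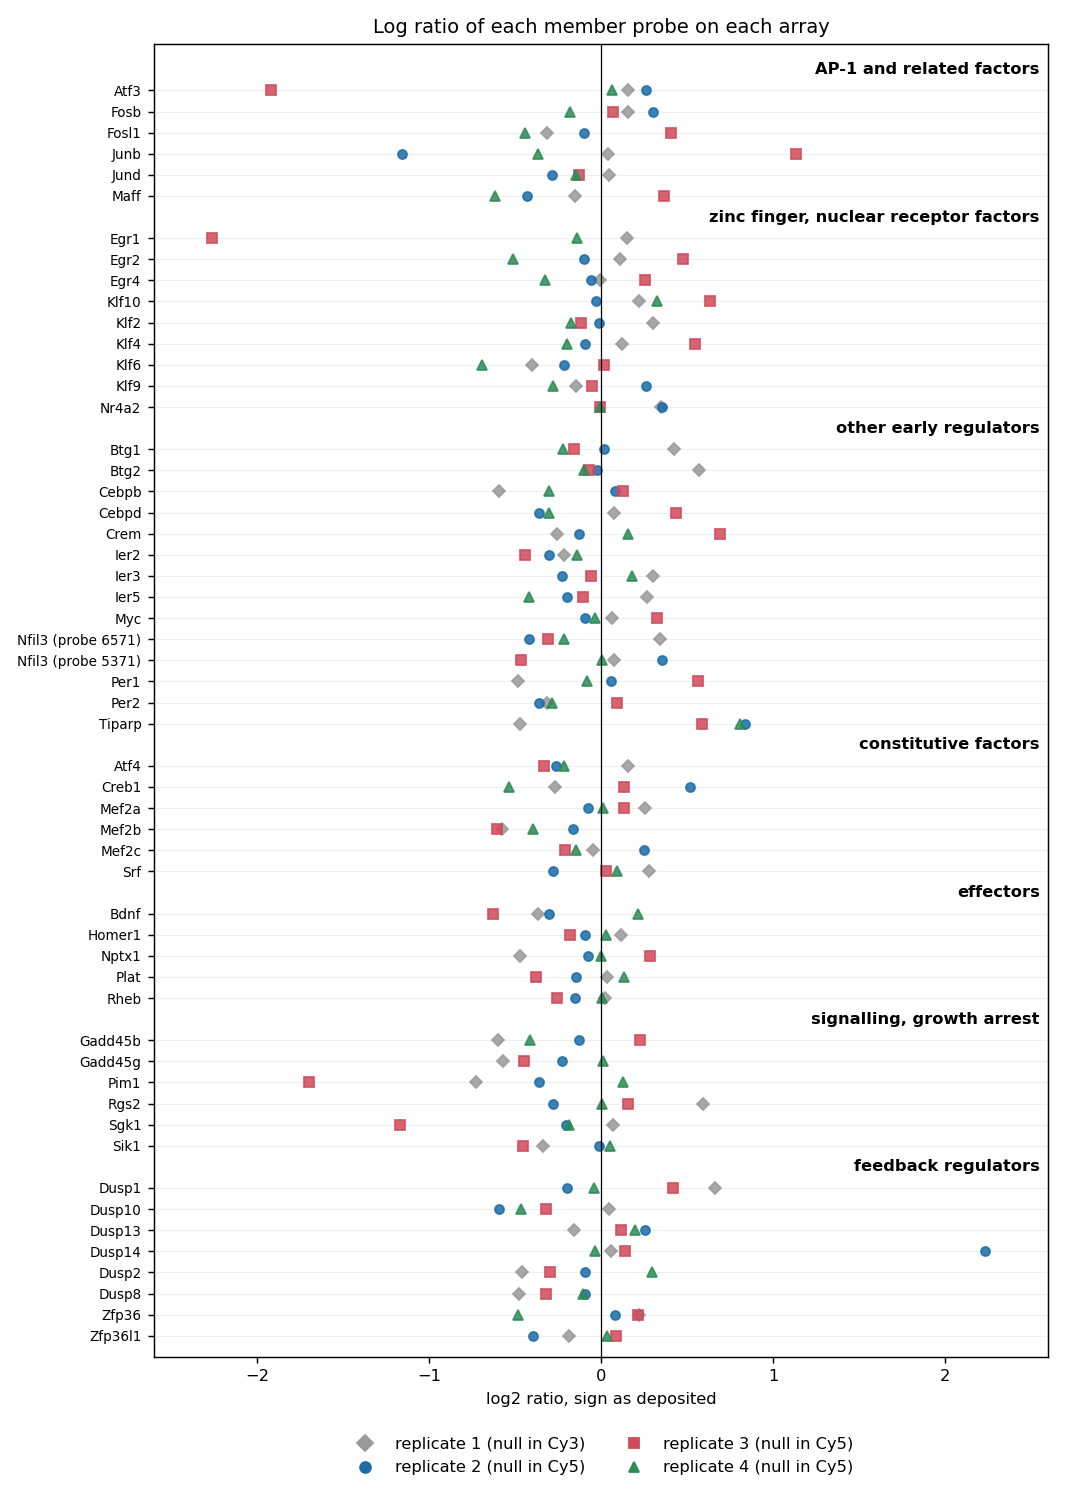
Log2 ratio (horizontal axis, sign as deposited) of each of the 54 member probes on each array, grouped by role. The points of Tiparp on replicates 2 to 4 lie together between 0.58 and 0.83, whereas Egr1, Atf3, Pim1 and Sgk1 have their lowest points on replicate 3 and Dusp14 its highest on replicate 2.

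Among transcription regulators, Tiparp had the smallest p. Tiparp encodes a member of the poly-ADP-ribose polymerase family that is induced by the aryl hydrocarbon receptor and restrains it. It had log ratios of 0.83, 0.58 and 0.80 on replicates 2, 3 and 4, and -0.47 on replicate 1 as deposited. All 3 arrays with null RNA in Cy5 had a positive ratio, and the array of the opposite dye orientation carried the opposite sign. The mean over replicates 2 to 4 was 0.74 ± 0.14 (SD, n = 3), a 1.67-fold ratio in size, with a 95% interval of 0.38 to 1.10. Limma gave an unadjusted p of 0.00248, the rank of 20 among 5720 probes, and an adjusted p of 0.450. With replicate 1 turned the mean of 4 arrays was 0.67 ± 0.17, with an adjusted p of 0.371 in limma. With replicate 1 as deposited it was 0.44 ± 0.62, with an adjusted p of 0.664. Tiparp had the smallest p of the members but did not pass the adjusted test. The 250 bases before its annotated start are printed, from chr3:65528197-65528446 of GRCm38.p6, plus strand. The capitals mark the core of the site bound by the aryl hydrocarbon receptor, GCGTG, read here on the opposite strand. This core was in the windows of 24 of the 42 member genes, or 57.1%, against 30.9% of all genes, and the first EGR site contains it. None of the CREB, AP-1, EGR or CArG letters was in this window.
Tiparp upstream window: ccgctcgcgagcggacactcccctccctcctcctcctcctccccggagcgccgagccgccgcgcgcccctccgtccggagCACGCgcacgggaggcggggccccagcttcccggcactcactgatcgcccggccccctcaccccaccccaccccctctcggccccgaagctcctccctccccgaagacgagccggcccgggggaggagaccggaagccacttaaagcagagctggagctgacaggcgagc

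Of the Ier genes, which encode immediate early response proteins, Ier2 and Ier5 had a common sign on replicates 2 to 4 and Ier3 did not. Ier2 had log ratios of -0.30, -0.45 and -0.14 on replicates 2, 3 and 4, and -0.21 on replicate 1. Its mean was -0.30 ± 0.15 (SD, n = 3), with an adjusted p of 0.558 in limma. Ier5 had -0.20, -0.10 and -0.42, with 0.26 on replicate 1, and a mean of -0.24 ± 0.16. Both were negative on each of replicates 2 to 4, and they differed in sign on replicate 1. Ier3 was mixed, at -0.23, -0.06 and 0.18. Nfil3, a basic leucine zipper repressor that acts with the circadian clock, had a pair of probes that disagreed. One probe read -0.42, -0.31 and -0.22 on replicates 2 to 4, which gives a mean of -0.32 ± 0.10, and limma's adjusted p was 0.543. The other read 0.36, -0.46 and 0.0049, with a mean of -0.03 ± 0.41. The gene's value therefore depends on the probe. The first probe had an unadjusted p of 0.0275 in limma when replicate 1 was turned and joined the fit, with an adjusted p of 0.551.

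The other early regulators of transcription showed no common sign on replicates 2 to 4, apart from Btg2. This gene, an antiproliferative factor expressed in neurogenic progenitors, had a mean of -0.07 ± 0.04 (SD, n = 3), while its relative Btg1 had -0.12 ± 0.12. On replicate 1 they stood at 0.57 and 0.42. Crem, a relative of CREB that includes the inducible repressor ICER, had -0.13, 0.69 and 0.16. The clock genes Per1 and Per2 had means of 0.18 ± 0.34 and -0.18 ± 0.24. Their ranges over the arrays included both signs. Myc, Cebpb and Cebpd, growth and stress response factors of many cell types, had means between -0.08 and 0.07.

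Of the Fos and Jun genes, whose AP-1 proteins pair to bind DNA, only Fosb, Fosl1, Junb and Jund had a member probe. Among these, Jund was the steadiest. Jund had -0.28, -0.13 and -0.14 on replicates 2, 3 and 4, with 0.05 on replicate 1. Its mean was -0.19 ± 0.09 (SD, n = 3), with an adjusted p of 0.687 in limma. Junb had -1.16 on replicate 2, 1.13 on replicate 3 and -0.37 on replicate 4, so that arrays of the same dye orientation opposed each other by more than 2-fold to either side. Fosb and Fosl1 had means of 0.06 ± 0.24 and -0.05 ± 0.43. Atf3, a stress-induced member of the ATF family, read 0.26 and 0.06 on replicates 2 and 4 and -1.92 on replicate 3. Its mean of -0.53 ± 1.21 rested on replicate 3, and without that array the mean was 0.16. Maff, a small MAF protein that lacks an activation domain, had -0.43, 0.37 and -0.62. Of the 6 AP-1 and related probes, 5 had a mean below 0, against 52.6% of all probes. Their median was -0.16, and 1 had a common sign, against 33.5% of all probes.

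The Egr, Nr4a and Klf factors did not share a direction. Egr1, a zinc finger factor widely used as a marker of neuronal activity, had no value on replicate 2 and was left out of the fit. It read 0.15 on replicate 1, -2.26 on replicate 3 and -0.14 on replicate 4. Only replicate 3 was far from 0. Egr2, which also directs hindbrain patterning and myelination, had -0.10, 0.47 and -0.51 on replicates 2 to 4, and Egr4 had -0.06, 0.26 and -0.33. In both genes replicate 3 was positive and replicate 4 negative, whereas Egr1 was negative on both and lower on replicate 3. Nr4a2, an orphan nuclear receptor of deep cortical layers and dopamine neurons, had 0.35, -0.0063 and -0.0078, with 0.35 on replicate 1. The Klf zinc finger factors had means from -0.30 to 0.31. Klf10, induced by TGF-beta, was highest at 0.31 ± 0.33 (SD, n = 3), and Klf6 was lowest at -0.30 ± 0.36. Klf2, known for its role in endothelium, had -0.01, -0.12 and -0.18, and Klf4 and Klf9 had means of 0.08 ± 0.40 and -0.02 ± 0.27.

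In the group of Creb1, Srf and the Mef2 genes, where Atf4 was also placed, the smallest p-values belonged to Mef2b and Atf4. Mef2b, a member of the MEF2 family of calcium-responsive factors, had -0.17, -0.61 and -0.39 on replicates 2, 3 and 4, and -0.58 on replicate 1. All 4 deposited values were below 0. Its mean was -0.39 ± 0.22 (SD, n = 3), a 1.31-fold ratio in size, with an unadjusted p of 0.0484 in the limma fit, and limma's adjusted value was 0.511. With replicate 1 as deposited the mean of 4 arrays was -0.44 ± 0.20. With a dye term, which takes the ratio as a fixed channel over the other, the sign turned, at 0.09. Mef2a and Mef2c, the members of the family best known in cortical neurons, had means of 0.02 ± 0.11 and -0.04 ± 0.25. Atf4, a factor of the integrated stress response, had -0.26, -0.34 and -0.22, with 0.16 on replicate 1. Its values on replicates 2 to 4 lay close together, where their mean was -0.27 ± 0.06, and limma's adjusted p was 0.571. Creb1, which encodes CREB, had 0.52, 0.13 and -0.54, and Srf had -0.28, 0.03 and 0.09. Both straddled 0.

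None of the 5 effectors of plasticity had an unadjusted p under 0.05 in limma, and their median was -0.13. Bdnf, a neurotrophin whose transcription follows neuronal calcium, had -0.31, -0.63 and 0.21 on replicates 2, 3 and 4, and -0.37 on replicate 1. Replicate 4 differed in sign from replicates 2 and 3. Its mean was -0.24 ± 0.42 (SD, n = 3) with a 95% interval of -0.73 to 0.25, so that a difference of up to 1.66-fold lay within the interval. Homer1, a postsynaptic scaffold with a short activity-induced form, had -0.10, -0.18 and 0.02, and a 95% interval of -0.43 to 0.27. The annotation does not say which form the probe detects. Rheb, the GTPase that activates mTORC1, had -0.15, -0.26 and 0.0039. Plat, the tissue plasminogen activator, had a mean of -0.13 ± 0.26, and Nptx1, a secreted pentraxin that gathers AMPA receptors, had 0.07 ± 0.19. In this group 4 of 5 means were below 0, against 52.6% of all probes, and Bdnf turned positive with a dye term (0.06). None had a common sign on replicates 2 to 4, against 33.5% of all probes.

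**Figure D4:**
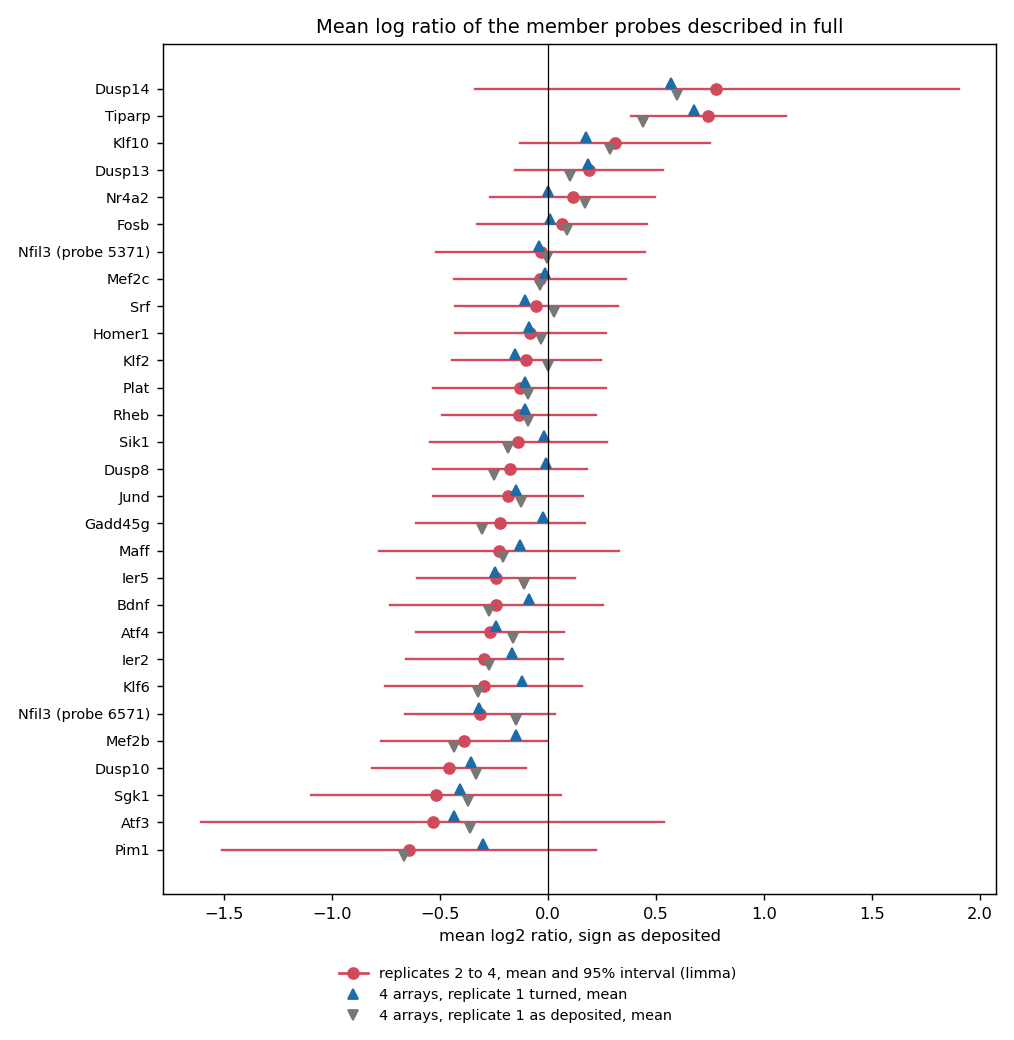
Mean log2 ratio (horizontal axis, sign as deposited) of the 29 member probes described in full, over replicates 2 to 4 with limma's 95% interval (red), and over 4 arrays with replicate 1 turned (blue) or as deposited (grey). The intervals of Tiparp, Dusp10 and Mef2b do not reach 0, and those of Dusp14, Atf3 and Pim1 are the widest.

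All 6 kinases, signalling proteins and growth arrest genes had a mean below 0 on replicates 2 to 4, where 52.6% of all probes did, with a median of -0.18. The pattern did not hold on each array, as the group median was -0.22, -0.45 and 0.008 on replicates 2, 3 and 4. Without replicate 3 the mean of Sik1 was positive (0.02). Fits that take the ratio as a fixed channel over the other also broke the pattern. Pim1, Sik1 and Gadd45g turned positive with a dye term (0.04, 0.10 and 0.17) and Gadd45b with replicate 1 turned (0.07). With replicate 1 as deposited, Rgs2 turned positive (0.12). Sgk1, a serum and glucocorticoid-induced kinase, had -0.21, -1.17 and -0.19 on replicates 2, 3 and 4, and 0.07 on replicate 1. Its mean of -0.52 ± 0.56 (SD, n = 3) was -0.20 without replicate 3, and limma gave an adjusted p of 0.545 for all 3 arrays. Pim1, a survival kinase, had -0.36, -1.70 and 0.12, with -0.73 on replicate 1, and a mean of -0.65 ± 0.95. Replicate 3 was again the lowest, and without it the mean was -0.12. Gadd45g and Gadd45b, stress sensors linked to DNA demethylation, had means of -0.22 ± 0.23 and -0.11 ± 0.32. Sik1, a salt-inducible kinase that holds back CREB coactivators, had -0.14 ± 0.28, and Rgs2, a regulator of G protein signalling, had -0.04 ± 0.22. The only member of this group with a common sign on replicates 2 to 4 was Sgk1.

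The dual-specificity phosphatases, which remove phosphate from MAP kinases, differed among themselves. Dusp10, which acts on p38 and JNK, had -0.59, -0.32 and -0.47 on replicates 2, 3 and 4, and 0.04 on replicate 1. All 3 values on replicates 2 to 4 were negative. The mean was -0.46 ± 0.14 (SD, n = 3), a 1.38-fold ratio in size, with a 95% interval of -0.82 to -0.10, an unadjusted p of 0.0201 and an adjusted p of 0.473 in limma. Dusp8, which acts on JNK, had -0.10, -0.32 and -0.11, with -0.48 on replicate 1. Dusp13, an atypical phosphatase of testis and muscle, had 0.26, 0.12 and 0.20. Dusp14 had 2.23 on replicate 2 and 0.14 and -0.04 on replicates 3 and 4, so that its mean of 0.78 ± 1.26 rested on replicate 2 and was 0.05 without it. The immediate early phosphatases Dusp1 and Dusp2 had means of 0.06 ± 0.32 and -0.03 ± 0.30. Zfp36 and Zfp36l1, which bind AU-rich mRNAs and speed their decay, had means of -0.06 ± 0.37 and -0.09 ± 0.26. The genes with a CREB site, Btg2, Dusp8, Maff and Dusp1, had means of -0.07, -0.18, -0.23 and 0.06, and none of their intervals excluded 0. The genes with a CArG box, Srf, Zfp36 and Egr2, had means of -0.06, -0.06 and -0.05.

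Large ratios among the members came from single arrays. Beyond 1 in size, that is 2-fold, were 5 of 54 members on replicate 3, or 9.26%, against 7.82% of all probes. These were Egr1, Atf3, Pim1 and Sgk1 on the negative side and Junb on the positive side. On replicate 2 there were 2 of 53, Dusp14 and Junb, against 2.73% of all probes. On replicates 1 and 4 there were 0, against 3.97% and 1.70%. No member was beyond 2-fold in the same direction on more than 1 array.

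The wider pathway around these genes was followed through 4 lists. Of the calcium and calmodulin genes, 14 probes were measured, 9 positive and 5 negative, and limma listed 0 at an unadjusted p under 0.05. The lowest p there belonged to the CaMKII subunit gene Camk2b, at -0.44 ± 0.36 (SD, n = 3), whereas its other probe had 0.07 ± 0.26. Ppp3ca, a catalytic subunit of calcineurin, had 0.40 ± 0.48, whereas the other catalytic subunits Ppp3cb and Ppp3cc had -0.10 ± 0.11 and -0.06 ± 0.51. Calm3, a calmodulin gene, had 0.20 ± 0.14, and the NMDA receptor subunit Grin2a had -0.27 ± 0.49. Of 7 probes of the MAP kinase cascade, 4 were positive and 1 was listed, Nras, a RAS GTPase, at 0.37 ± 0.13. Its neighbours Sos1, Braf and Elk1, an exchange factor, a kinase and a partner of SRF, had 0.28 ± 0.31, 0.18 ± 0.33 and -0.12 ± 0.14. Of 9 probes for cAMP signalling and CREB coactivators, 5 were positive and 1 was listed, the adenylyl cyclase Adcy9, at 0.45 ± 0.13. Adcy3, another cyclase, had 0.27 ± 0.18, and the deacetylase Hdac5 had -0.38 ± 0.46. Prkaca, a catalytic subunit of protein kinase A, had -0.27 ± 0.26, whereas another, Prkacb, had 0.16 ± 0.19. Of 17 further activity-regulated probes, 8 were positive and 1 was listed, Ifrd1, at 0.41 ± 0.13. Pdyn and Rgs4 had -0.29 ± 0.03 each, and Penk had 0.30 ± 0.50. These listings compare with 5.61% of all probes on the positive side and 4.06% on the negative side, none passed an adjusted p of 0.05 in limma, and the list medians lay between -0.0024 and 0.09.

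Marker lists of other cells in the dissected tissue were measured beside the members. Of all probes, 52.6% had a mean below 0. Limma listed 5.61% of all probes as positive and 4.06% as negative at an unadjusted p under 0.05. No marker probe passed an adjusted p of 0.05 in limma. For vessels, 11 of 14 probes were negative, 5 of them at an unadjusted p under 0.05 in limma, and the list median was -0.31, -0.39 and -0.29 on replicates 2, 3 and 4. For microglia and leukocytes, 10 of 13 were positive, 5 of them listed, with medians of 0.22, 0.30 and 0.28. Meninges had 8 of 12 negative, with 2 probes listed as positive and 3 as negative, and medians from -0.25 to -0.10. Blood had 4 of 6 negative, with 2 listed, and medians of 0.05, -0.51 and -0.27. Cortical neuron markers had 7 of 10 negative, with 1 listed as positive and 2 as negative, and medians from -0.15 to -0.0062. On replicate 1, as deposited, the medians were -0.14 for vessels and -0.06 for microglia and leukocytes. They were -0.29 for meninges, 0.006 for blood and 0.22 for cortical neurons. The vessel median thus kept its sign with replicate 1 as deposited, and the microglia median with it turned. The vessel markers were thus negative on the arrays where most members were negative, and also on replicate 3, where the members split evenly. Their part in the members' values was not tested.

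**Figure D5:**
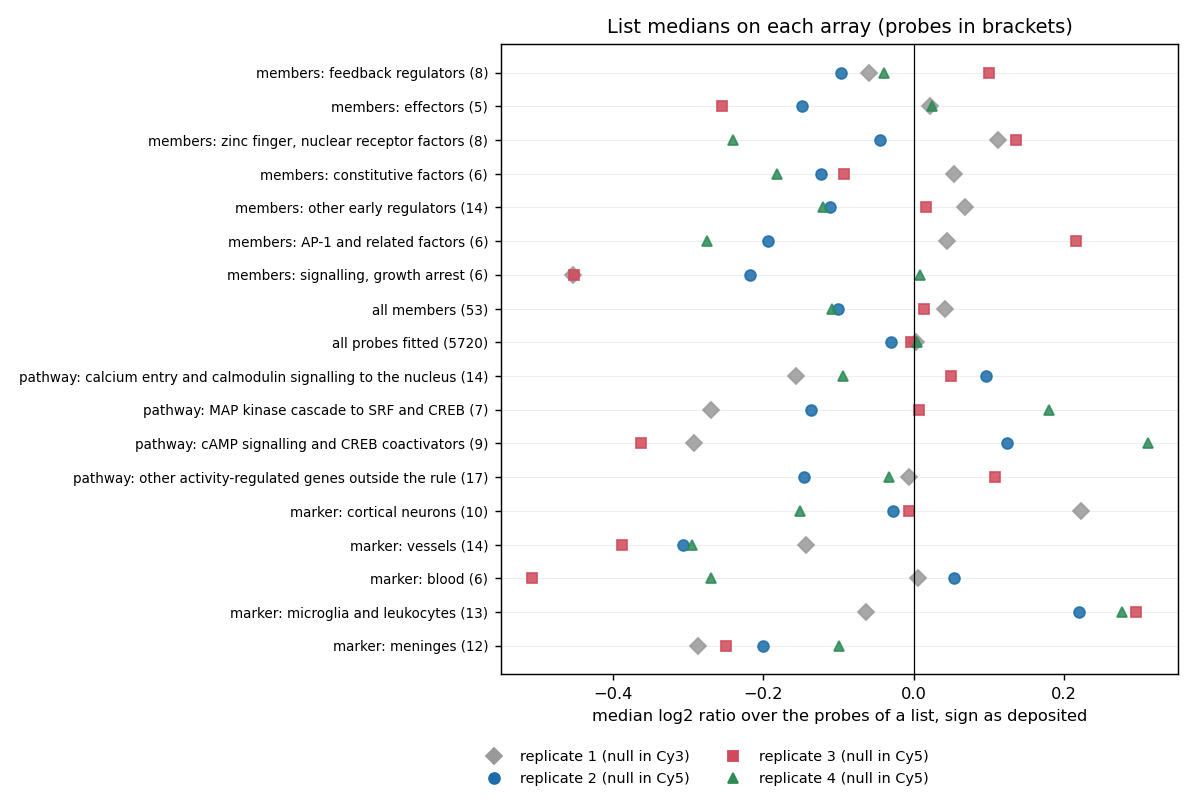
Median log2 ratio (horizontal axis, sign as deposited) over the probes of each role group, pathway list and marker list on each array, with the number of probes in brackets. The medians of all members lie between -0.11 and 0.04, nearer to 0 than those of the vessel markers on each array and those of the microglia markers on each array.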

How the data were processed

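Per the file headers, the table of the series has a row for each probe and 1 column for each array, and 0 columns stayed unused. The deposited values are log ratios, taken as log2 from their size and centring. How the authors corrected background and normalized, and which log base and numerator they took, is not stated in the sources used here. Signal over background is unknown. Precision is limited by the number of arrays. The table lists 6856 probes, of which 981 lack values throughout and 188 lack them in part. Genes were named from the platform annotation, which gave 6269 probes a single symbol, 6 several and 581 none. Entrez IDs of 6250 of them were in the RefSeq gene table of GRCm38.p6, which changed 0 symbols. The mutated gene is not reported here.

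The mean log ratio over replicates 2 to 4 of each probe was set against 0 in limma 3.58.1 (lmFit, eBayes; R 4.3.3). The fit covered 5720 probes with a value on each, and p-values were two-sided and adjusted by Benjamini-Hochberg over all of them. With 3 arrays an exact sign permutation test of 1 gene cannot go below p = 0.25, so none is given. Described in full were members at an unadjusted p under 0.05, the 10 largest per sign with a common sign, the 4 with the smallest p per role group, and genes with several probes, and from each pathway list the 4 with the smallest p. Other members, Egr1 among them, were described after their values were seen. Members, lists and roles were chosen with earlier results of these data known. Labels call the null samples biological replicates.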

Additional observations from a re-analysis of the deposited data

Results flagged for a closer look

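Among the members described in full, the 4 arrays were examined for a single value far from the others, with replicate 1 as deposited and turned. This gave 58 sets of 4 values, of which 4 had such a value. Chance gives about 1 in 20 independent sets. That rate does not apply here, because both sets of a probe share replicates 2 to 4 and the probes were chosen by these values. Atf3 had -1.92 on replicate 3, with 0.0608 the nearest other value, when replicate 1 was as deposited. Sgk1 had -1.17 on replicate 3, with -0.207 the nearest, when replicate 1 was turned. Dusp14 had 2.23 on replicate 2, with 0.138 the nearest, for either sign of replicate 1. No cause was tested.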

How the results depend on the processing

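In the 11 other settings tried, and without replicate 2, 3 or 4 in turn, 0 members passed an adjusted p of 0.05 in limma (0.1 in the looser setting). The unadjusted counts were 1 positive and 2 negative members in the leading fit. Over all probes, the number past the adjusted threshold was 0 there, 2 on 4 arrays with replicate 1 as deposited, 1 with a dye term, 1 with a robust variance prior, 3 with array weights and 1 at an adjusted p of 0.1. The count of positive members was 0 with replicate 1 as deposited and 2 with array weights. The count of negative members was 0 with a dye term, 1 with median-centred arrays, 1 with a missing value allowed, and 0 to 3 when single arrays were left out. The member median ranged from -0.10 to -0.04. The count of members below 0, an alternative chosen after seeing the data, ranged from 29 of 53 with a dye term (54.7%, against 51.9% of all probes) to 41 of 53 without replicate 3 (77.4%, against 53.7%). The fit with a dye term takes the ratio as a fixed channel over the other. The cause of these shifts was not tested.

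Of 377 values of members described in full under these alternatives, 23 took the opposite sign. With a dye term these were Klf6 at 0.0514, Mef2c at 0.00464, Bdnf at 0.0632, Fosb at -0.0458, Mef2b at 0.094, Dusp8 at 0.152, Pim1 at 0.0404, Sik1 at 0.0991, Gadd45g at 0.174 and Nr4a2 at -0.116. Nr4a2 had -0.00128 with replicate 1 turned, and Srf had 0.0276 with it as deposited. Array weights gave Mef2c 0.105 and the second Nfil3 probe 0.178, which had 0.0259 on a common scale. When single arrays were left out, Fosb ranged from -0.057 to 0.185, Nr4a2 from -0.00706 to 0.174, Srf from -0.128 to 0.0587, Mef2c from -0.18 to 0.0497 (0.0172 without replicate 4), Atf3 from -0.932 to 0.161, Sik1 from -0.233 to 0.0197 and the second Nfil3 probe from -0.23 to 0.18. Of the members described in full, 16 kept their sign in every alternative, Tiparp and Dusp10 among them. A probe with a common sign, as both had, cannot reverse when a single array is left out. No paired analysis was possible because each array sets a null sample against the same pool.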
